A study of Homo sapiens with 6 samples.

Results

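The tubulin isotypes are the gene products from which microtubules are built, and 10 of their genes were followed here in Hep3B cells with reduced DAGLA expression. They were the 4 alpha tubulin genes TUBA1A, TUBA1B, TUBA1C and TUBA4A, the 5 beta tubulin genes TUBB, TUBB2A, TUBB2B, TUBB4B and TUBB6, and the gamma tubulin gene TUBG1. Members were taken by symbol, as the rows of the deposited table whose Ensembl identifier carries that name in GENCODE release 29, and they made up 10 of the 29908 genes of the table. TUBA1C was also among the genes that the study had selected, so its direction is not independent evidence. Hep3B is a long-established cell line from a human hepatocellular carcinoma. Hep3B-KD cells had been infected with a lentivirus that carries a short hairpin RNA against DAGLA (shDAGLA), the gene of diacylglycerol lipase alpha, which makes the endocannabinoid 2-arachidonoylglycerol. Hep3B-Con cells had been infected with control lentivirus, and both groups were selected with puromycin. The sample titles name this control shControl, whereas the series design names an empty vector. Whether the control virus carried a hairpin is therefore unclear. If it did not, effects of expressing any hairpin cannot be told apart from those of the DAGLA hairpin. The sample labels name DMEM as the medium and the study's methods MEM-alpha, each with fetal bovine serum. A single hairpin against DAGLA was used in these libraries, without a rescue, so an effect of the hairpin on other transcripts cannot be told apart from an effect of DAGLA loss. RNA of 3 Hep3B-Con and 3 Hep3B-KD samples was sequenced, 6 libraries in all, and nothing in the labels says whether the 3 samples of a group came from separate cultures, so p-values measure the spread between these samples only.

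Microtubules are polymers of alpha and beta tubulin dimers, and gamma tubulin, held in a ring complex with other proteins, starts their assembly. Alpha and beta chains are folded by the CCT chaperonin with prefoldin and by tubulin cofactors, and vertebrates hold several genes for each chain whose products differ mainly at the carboxyl end, where enzymes add and remove modifications. Cells also adjust tubulin mRNA to the amount of free dimer: when dimers are in excess, a signal at the start of the newly made alpha or beta chain is read at the ribosome by TTC5, and the mRNA is degraded through SCAPER and the CCR4-NOT deadenylase. Liver tumour cells divide, so their tubulin serves both the interphase array and the mitotic spindle.

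The coding starts are shown because the autoregulation signal lies there. They were read from the GENCODE release 29 transcripts, 5′ to 3′, with the first 12 bases, which encode the signal in alpha and beta tubulin, in capitals.
TUBA1A start: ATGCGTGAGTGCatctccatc
TUBA1B start: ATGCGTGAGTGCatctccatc
TUBA1C start: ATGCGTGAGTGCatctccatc
TUBA4A start: ATGCGTGAATGCatctcagtc
TUBB start: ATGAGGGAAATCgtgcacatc
TUBB2A start: ATGCGCGAGATCgtgcacatc
TUBB2B start: ATGCGTGAGATCgtgcacatc
TUBB4B start: ATGAGGGAAATCgtgcacttg
TUBB6 start: ATGAGGGAGATCgtgcacatc
TUBG1 start: ATGCCGAGGGAAatcatcacc
The 3 TUBA1 genes shared all 21 bases. TUBB and TUBB4B shared the capital bases, TUBB6, TUBB2A and TUBB2B each had another spelling of them, and TUBG1, which is not known to carry the signal, began differently.

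The last 36 bases of the coding sequence, stop codon included, are shown for the beta tubulin genes on which the results turn, because isotypes differ most there.
TUBB2A end: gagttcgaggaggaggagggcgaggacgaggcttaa
TUBB2B end: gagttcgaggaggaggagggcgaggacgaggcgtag
TUBB4B end: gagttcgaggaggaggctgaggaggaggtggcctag
TUBB6 end: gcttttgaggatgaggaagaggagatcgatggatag
Over the aligned coding sequence TUBA1A and TUBA1B were 97.2% identical, TUBA1B and TUBA1C 97.3% with 37 differing bases, and TUBB2A and TUBB2B 98.1% with 25 differing bases, whereas TUBB and TUBB6 were 81.3% identical.

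Levels are given as FPKM, the reads of a gene scaled to the length of its exons and to the reads of the library, as deposited. Multiplied back with the exon lengths of GENCODE release 29, every value was a whole read, and the libraries held between 15861039 and 17572714 reads. Log2 fold changes are Hep3B-KD against Hep3B-Con on log2(FPKM + 0.1), a scale that understates changes of genes with low values, with adjusted p-values from limma (Benjamini-Hochberg over the 14221 genes whose mean reached 0.5 FPKM). DAGLA, the targeted gene, stood at 9.42, 9.40 and 9.02 FPKM in Hep3B-Con and at 4.62, 4.46 and 4.78 FPKM in Hep3B-KD, a log2 fold change of -0.99 (SE 0.0441, adjusted p = 5.25e-06 in limma). Of all genes tested, 59.9% passed an adjusted p of 0.05, 36.1% higher and 23.8% lower in Hep3B-KD, and with a fold change of at least 2 in addition 5.89% were higher and 2.94% lower. Over all genes tested, the median change on the log2 scale was 0.11. Centring on the median log ratio brought it to 0.0059 and turned the split of called genes from 5133 higher and 3388 lower to 4064 higher and 4308 lower. Of 8 hepatocyte-lineage markers, 7 were higher in Hep3B-KD, HNF4A was lower, and their summed level was 2699 to 2745 FPKM in Hep3B-Con and 4391 to 4413 FPKM in Hep3B-KD. The summed level of 5 fibroblast markers was 9.14 to 10.1 FPKM in Hep3B-Con and 5.38 to 5.91 FPKM in Hep3B-KD, with COL1A1, LUM and PDGFRB lower and COL3A1 and DCN at no more than 3 reads in any library. The 4 endothelial markers summed to at most 0.385 FPKM, and the 2 leukocyte markers with a row, PTPRC and CD14, to at most 1.32 FPKM. The part of these markers in the tubulin results was not tested.

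All 10 tubulin isotypes passed the filter. In Hep3B-KD, 7 were lower, 1 was higher and 2 did not pass the test, against 23.8% of all genes tested that were lower and 36.1% that were higher. The median log2 fold change of the 10 genes was -0.48, beside 0.11 for all genes tested. The values of the 2 groups did not overlap for 8 of the 10 genes, as for 66.9% of all genes tested. Only TUBB6 fell by a fold change of at least 2, TUBA1C came close to that limit (and passed it with median centring, at -1.05 on the log2 scale), and TUBB2A rose. The study's selection of TUBA1C had required a fold change of at least 2 in its RNA sequencing. At 1.93-fold lower, TUBA1C did not reach it here without that centring. In RNA from whole cultures, fewer cells that express a gene and less of its RNA per cell cannot be told apart.

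**Figure D1:**
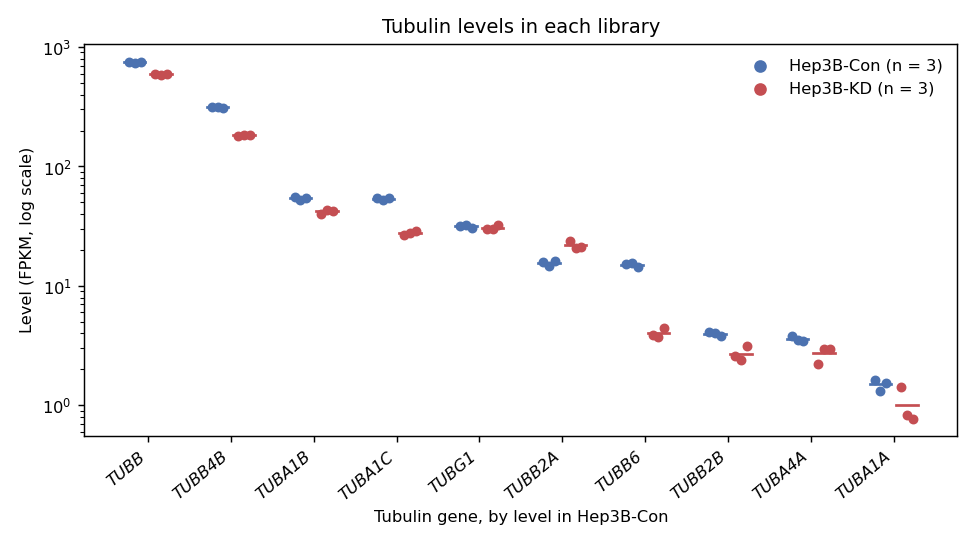
Level of each tubulin gene (FPKM, log axis) in the 3 Hep3B-Con libraries (blue points) and the 3 Hep3B-KD libraries (red points), with genes ordered by their mean in Hep3B-Con and short lines at the group means. TUBB6 shows the widest gap, from 15.0 to 4.02 FPKM, TUBB2A is the only gene whose Hep3B-KD points all lie above the Hep3B-Con points, and the points of TUBA1A and TUBG1 overlap.

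Among the beta tubulins, TUBB6, the class V isotype (chromosome 18, 12307669 to 12344320, plus strand, GRCh38), had the largest change of the 10 genes. It was at 15.2, 15.5 and 14.4 FPKM in Hep3B-Con and at 3.91, 3.75 and 4.41 FPKM in Hep3B-KD. Every Hep3B-KD library was thus below every Hep3B-Con library by a wide margin. The group means were 15.0 ± 0.557 and 4.02 ± 0.343 FPKM (SD, n = 3), resting on 988 to 1108 reads and 248 to 301 reads, and the level was 3.68-fold lower (log2 fold change -1.88, SE 0.0666, adjusted p = 2.22e-06 in limma).

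TUBB4B, the class IVb isotype found in most tissues and in cilia (chromosome 9, 137241213 to 137243707, plus strand), was at 315, 315 and 309.6 FPKM in Hep3B-Con and at 181, 183 and 184 FPKM in Hep3B-KD. The 2 groups were far apart and each was tight, with SDs of 3.35 and 1.22 FPKM. The gene fell 1.71-fold (log2 fold change -0.78, SE 0.0146, adjusted p = 2.10e-07 in limma), the lowest adjusted p among the 10 genes.

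TUBB, the constitutive class I isotype (chromosome 6, 30720201 to 30725426, plus strand), had the highest FPKM of the members in both groups. It stood at 750.0, 740.1 and 752 FPKM in Hep3B-Con and at 596, 587 and 596 FPKM in Hep3B-KD. The groups did not overlap, and the level fell 1.26-fold (log2 fold change -0.33, SE 0.0127, adjusted p = 2.96e-06 in limma). On 31689 to 44271 reads, this was the most deeply counted member, and in FPKM it lost more than any other member, from a mean of 747 to 593 FPKM.

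TUBB2A and TUBB2B are class II isotypes that lie near each other on the minus strand of chromosome 6 (3153669 to 3157526 and 3224261 to 3231730) and differ little in coding sequence. TUBB2A was at 15.9, 14.8 and 16.3 FPKM in Hep3B-Con and at 23.7, 20.7 and 21.2 FPKM in Hep3B-KD. All 3 Hep3B-KD values were higher, and TUBB2A rose 1.39-fold (log2 fold change 0.48, SE 0.0625, adjusted p = 0.000628 in limma). TUBB2B was at 4.15, 4.01 and 3.81 FPKM in Hep3B-Con and at 2.59, 2.38 and 3.13 FPKM in Hep3B-KD. Its groups also did not overlap, but in the other direction, at -0.55 as log2 fold change (SE 0.104, adjusted p = 0.00350 in limma). The ratio of TUBB2A to TUBB2B was 3.84, 3.68 and 4.29 in Hep3B-Con and 9.18, 8.70 and 6.76 in Hep3B-KD. With the 2 genes summed, the log2 fold change was 0.32 (adjusted p = 0.00218 in limma), so the sum followed the more abundant TUBB2A.

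Among the alpha tubulins, TUBA1B and TUBA1C had the highest FPKM in these cells. They lie with TUBA1A in a cluster on chromosome 12 (TUBA1B at 49127782 to 49131397 and TUBA1A at 49184796 to 49189324 on the minus strand, TUBA1C at 49188736 to 49274603 on the plus strand). TUBA1C was at 54.8, 52.6 and 54.0 FPKM in Hep3B-Con and at 26.9, 27.9 and 28.9 FPKM in Hep3B-KD. Each Hep3B-KD library lay far below the Hep3B-Con libraries, and TUBA1C fell 1.93-fold (log2 fold change -0.95, SE 0.0331, adjusted p = 2.11e-06 in limma). TUBA1B was at 55.6, 52.1 and 55.0 FPKM in Hep3B-Con and at 40.2, 43.4 and 42.6 FPKM in Hep3B-KD. It fell less, 1.29-fold (log2 fold change -0.37, SE 0.0384, adjusted p = 0.000219 in limma). The ratio of TUBA1C to TUBA1B was 0.986, 1.01 and 0.983 in Hep3B-Con and 0.669, 0.643 and 0.679 in Hep3B-KD, with no overlap between the groups, which in an exact permutation test of 3 against 3 gives the smallest p-value that design allows, 0.1.

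TUBA1A, best known as the main alpha tubulin of developing neurons, was at 1.65, 1.31 and 1.55 FPKM in Hep3B-Con and at 1.42, 0.837 and 0.775 FPKM in Hep3B-KD, on 44 to 99 reads a library. Hep3B-KD replicate 1 lay within the range of Hep3B-Con, and the log2 fold change of -0.57 did not pass (SE 0.231, adjusted p = 0.0726 in limma). Without that library the adjusted p was 0.00643, and over 16 alternatives TUBA1A was called in 4. TUBA4A (chromosome 2, 219249711 to 219278170, minus strand) encodes an alpha chain that ends without the terminal tyrosine of other alpha chains. It was at 3.79, 3.54 and 3.45 FPKM in Hep3B-Con and at 2.21, 2.96 and 2.98 FPKM in Hep3B-KD. The groups did not overlap, although Hep3B-KD replicates 2 and 3 were close to Hep3B-Con, and the log2 fold change was -0.40 (SE 0.122, adjusted p = 0.0272 in limma). This call was lost in 5 of 16 alternatives, among them each fit without a Hep3B-Con library, with adjusted p from 0.0518 to 0.0801. Without Hep3B-KD replicate 1, its lowest library, the log2 fold change was -0.26 (adjusted p = 0.0217 in limma). With TUBA1A, TUBA1B and TUBA1C summed, the log2 fold change was -0.62 (adjusted p = 8.17e-06 in limma).

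The gamma tubulin TUBG1, which nucleates microtubules at the centrosome (chromosome 17, 42609676 to 42615234, plus strand), was at 31.8, 32.6 and 30.4 FPKM in Hep3B-Con and at 29.7, 29.8 and 32.4 FPKM in Hep3B-KD. The groups overlapped, and the log2 fold change of -0.043 (95% confidence interval -0.15 to 0.061, adjusted p = 0.426 in limma) had no stable direction, being -0.15 with median centring (adjusted p = 0.0263) and 0.029 with quantile normalization. Its close copy TUBG2, not among the 10, had means of 6.72 ± 0.294 and 10.5 ± 0.393 FPKM (SD, n = 3) and rose by a log2 fold change of 0.63 (adjusted p = 5.03e-05 in limma). The sum of TUBG1 and TUBG2 was 38.5, 39.0 and 37.4 FPKM in Hep3B-Con and 40.2, 40.7 and 42.5 FPKM in Hep3B-KD.

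**Figure D2:**
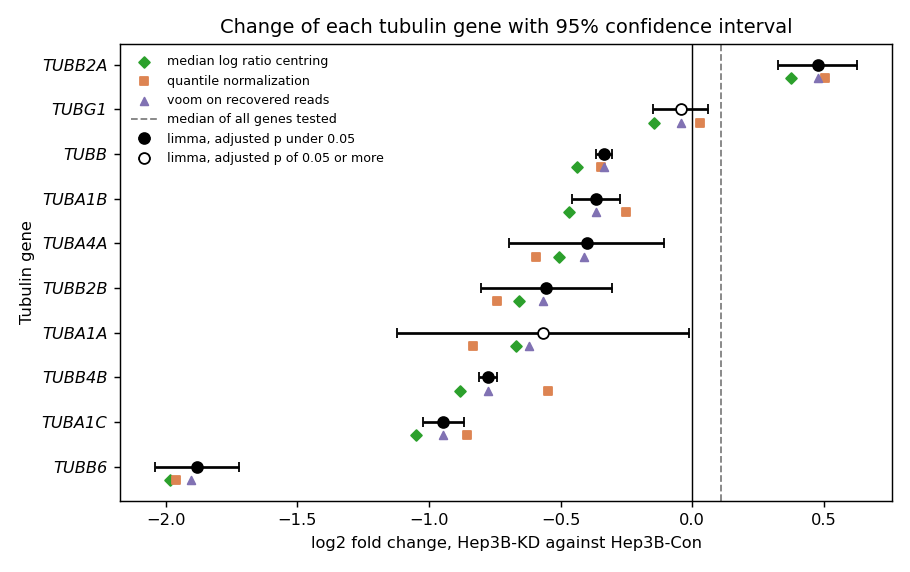
Log2 fold change of each tubulin gene, Hep3B-KD against Hep3B-Con (black circles with 95% confidence intervals from limma, filled where the adjusted p is under 0.05), with coloured marks for 3 alternatives and a dashed line at the median of all genes tested, 0.11. Apart from TUBG1, whose quantile-normalized value is 0.029, no gene has marks on both sides of 0, and TUBB6 stands apart at -1.88.

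By level in Hep3B-Con the order was TUBB, TUBB4B, TUBA1B, TUBA1C, TUBG1, TUBB2A, TUBB6, TUBB2B, TUBA4A and TUBA1A. In that order TUBA1B and TUBA1C, and likewise TUBB2A and TUBB6, had overlapping ranges. In Hep3B-KD TUBG1 stood above TUBA1C, TUBA1C above TUBB2A, and only TUBA4A and TUBB2B overlapped among neighbours. TUBB6, level with TUBB2A in Hep3B-Con, was at 4.02 FPKM against 21.9 FPKM for TUBB2A in Hep3B-KD.

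The make-up of the tubulin pool was described as each isotype's share of the summed FPKM of its class, with all 8 alpha and all 9 beta tubulin genes of the table in the sums. The summed alpha tubulin was 117, 110.4 and 115 FPKM in Hep3B-Con and 72.6, 77.3 and 76.8 FPKM in Hep3B-KD, 33.9% lower. The summed beta tubulin was 1109, 1097 and 1103 FPKM in Hep3B-Con and 821, 811 and 820.1 FPKM in Hep3B-KD, 25.9% lower. Both pools were thus smaller in every Hep3B-KD library. The ratio of summed beta to summed alpha FPKM had a mean of 9.65 in Hep3B-Con and 10.8 in Hep3B-KD. This ratio depends on exon lengths and on how reads that match several genes were counted, which is not given. TUBA1C made up 46.7%, 47.6% and 46.8% of alpha tubulin in Hep3B-Con and 37.0%, 36.1% and 37.7% in Hep3B-KD, while TUBA1B went from a mean of 47.4% ± 0.214 to 55.7% ± 0.421 (SD, n = 3). TUBB4B made up 28.5%, 28.7% and 28.1% of beta tubulin in Hep3B-Con and 22.1%, 22.6% and 22.4% in Hep3B-KD, while TUBB went from 67.7% ± 0.342 to 72.6% ± 0.0933 (SD, n = 3). In both classes the isotype with the highest FPKM in Hep3B-KD therefore held a larger share at a lower level. TUBB6 held 1.36% ± 0.0530 of beta tubulin in Hep3B-Con and 0.492% ± 0.0398 in Hep3B-KD, and TUBB2A held 1.42% ± 0.0685 and 2.68% ± 0.186 (SD, n = 3). Shares of a whole are bound to each other, and no test was made on them.

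**Figure D3:**
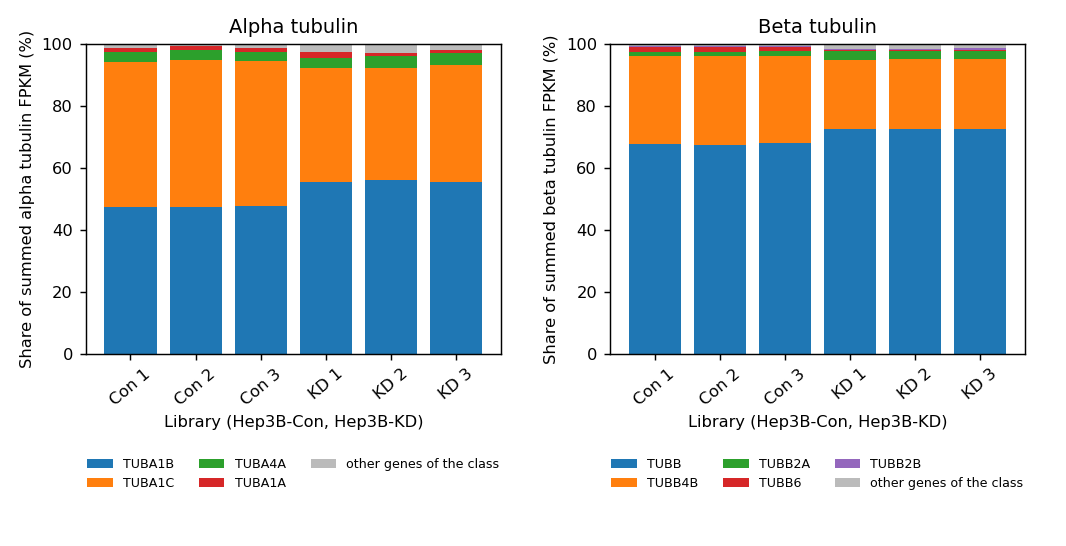
Share of each isotype in the summed FPKM (%) of alpha tubulin (left) and beta tubulin (right) in each of the 6 libraries, with all other genes of the class in grey. TUBA1C holds 46.7% to 47.6% of alpha tubulin in Hep3B-Con and 36.1% to 37.7% in Hep3B-KD, and TUBB4B narrows from 28.1% to 28.7% of beta tubulin to 22.1% to 22.6%.

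Some isotypes share long stretches of sequence with each other or with overlapping genes, and the sources used here do not give how reads that match several genes, or the strand, were treated in counting. Of all windows of 50 bases in the main coding transcript, the share found in a transcript of another protein-coding tubulin gene was 60.3% for TUBB2A, 56.6% for TUBA1B, 51.7% for TUBA1A, 47.3% for TUBB2B, 29.1% for TUBG1 and 25.1% for TUBA1C. It was 9.89% for TUBB4B, 5.25% for TUBA4A, 0.993% for TUBB6 and 0% for TUBB. With every other gene counted, on either strand, the share was higher for several members, at 87.1% for TUBA1B, 40.1% for TUBA1C, 32.6% for TUBA4A and 30.8% for TUBB. Genes that overlap them held much of this, AC011603.2 holding 68.7% of the windows of TUBA1B, STK16 27.4% of those of TUBA4A and AL662797.1 18.7% of those of TUBB. The split of reads between TUBA1A, TUBA1B and TUBA1C, or between TUBB2A and TUBB2B, is uncertain, while TUBB6, with the largest fold change of the 10 genes, had few shared windows. TUBB2A and TUBB2B had 933 windows of 50 bases in common. Among pseudogenes of the family, TUBBP1, a copy of TUBB with 422 windows of TUBB, had a mean of at least 0.5 FPKM and was called, at 7.54, 8.35 and 8.76 FPKM in Hep3B-Con and 5.09, 6.77 and 6.48 FPKM in Hep3B-KD (log2 fold change -0.43, adjusted p = 0.0164 in limma). TUBB8P1, TUBB8P2 and TUBBP5 were also at a mean of at least 0.5 FPKM, on at most 40 reads a library, and did not pass. Exons of other genes also covered part of the members' exons, 36.6% of the exon bases of TUBA1B (by AC011603.2), 25.0% of TUBA1C (by TUBA1A and AC125611.3) and 20.3% of TUBB6 (by AFG3L2, on the opposite strand). AC011603.2 and AC125611.3 had at most 2 reads in any library. AFG3L2, a mitochondrial protease gene, was at 7.71, 7.81 and 7.75 FPKM in Hep3B-Con and 7.86, 7.99 and 7.63 FPKM in Hep3B-KD, which is 0.014 as a log2 fold change (adjusted p = 0.764 in limma). The lengths behind the FPKM are of all exons of a gene together, 3574 bases for TUBA1B where its main coding transcript has 1627, and 1727 bases for TUBB2A against 1595, so levels of different isotypes depend on that choice more than changes of a single isotype do.

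The hairpin's target in DAGLA and its guide strand, with the seed (bases 2 to 8) in capitals, are shown because matches to the seed in a 3′ UTR can lower other transcripts. The site in TUBB4B, the only 3′ UTR of the main coding transcripts of the 10 genes that holds the seed match GCCTTCA, is at chr9:137243557-137243586 (GRCh38, plus strand), with the match in capitals. The match begins at base 2 of the 3′ UTR, right after the stop codon.
shDAGLA target: GCGACAACAAGGCCTTCAA
Guide strand: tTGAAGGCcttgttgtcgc
TUBB4B site: aGCCTTCAgtcactggggaaagcagggaag
Of 11032 genes tested that have a 3′ UTR of at least 50 bases, 1404 (12.7%) held the match. TUBB6 and TUBA1C, which fell more than TUBB4B, held none in the 3′ UTR. TUBA1A, TUBA1B, TUBA1C, TUBA4A and TUBB had 1 match each in the coding sequence. The longest exact run of bases shared with the 19-base target was 7 to 10 in the 10 genes. The part of the seed match in the change of TUBB4B was not tested.

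Promoters are shown for TUBB6 and TUBB4B, which fell, and for TUBB2A, which rose. They are the bases before the RefSeq start (GRCh38.p14), for TUBB4B only as far as the GENCODE gene begins, with CCAAT (or ATTGG), the box bound by NF-Y, and GGAATG (or CATTCC), the core bound by TEAD factors, in capitals. The positions are chr18:12307419-12307668 (plus strand) for the first of the 2 RefSeq starts of TUBB6, chr9:137241037-137241212 (plus strand) for TUBB4B and chr6:3157545-3157794 (minus strand) for TUBB2A.
TUBB6 promoter: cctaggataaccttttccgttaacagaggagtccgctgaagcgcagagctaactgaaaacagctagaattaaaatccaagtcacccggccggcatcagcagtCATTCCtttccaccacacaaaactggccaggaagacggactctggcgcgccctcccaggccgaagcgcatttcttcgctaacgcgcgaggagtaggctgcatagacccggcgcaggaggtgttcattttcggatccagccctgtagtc
TUBB4B promoter: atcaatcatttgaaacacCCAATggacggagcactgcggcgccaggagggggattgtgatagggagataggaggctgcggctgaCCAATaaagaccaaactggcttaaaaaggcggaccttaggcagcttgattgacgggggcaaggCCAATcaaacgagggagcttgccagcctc
TUBB2A promoter: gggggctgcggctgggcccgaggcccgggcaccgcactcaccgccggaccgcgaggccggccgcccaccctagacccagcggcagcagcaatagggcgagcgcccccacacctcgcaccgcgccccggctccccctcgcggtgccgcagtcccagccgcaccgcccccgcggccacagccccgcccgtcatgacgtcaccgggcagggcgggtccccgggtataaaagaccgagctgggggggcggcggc
Both strands of the 300-base RefSeq windows, 250 before and 50 after the start, were searched. CCAAT was in 34.6% and GGAATG in 14.0% of all 35116 promoter windows. The TUBB4B window held 3 CCAAT and 1 GGAATG, and that of the TUBB6 start shown held 2 GGAATG and no CCAAT. The windows are longer than the printed sequences, and 1 GGAATG of TUBB6 and that of TUBB4B lie outside the printed bases. The TUBB2A window held neither motif but 1 TATAAA, a motif in 11.5% of windows. The other RefSeq start of TUBB6 had 1 CCAAT and no GGAATG, and only its first bases, not those of the start shown, were found in a complete protein-coding transcript of TUBB6 in GENCODE release 29. The RefSeq start of TUBB2A lies before the GENCODE gene. The promoter of TUBA1C, which fell more than TUBB4B, is not shown. No window of TUBA1B, TUBA1C, TUBA4A, TUBB and TUBB2B, which also fell, held GGAATG, nor did those of TUBA1A and TUBG1. CCAAT was in at least 1 window of TUBA1A, TUBA1C, TUBB, TUBB2B and TUBG1, but not in those of TUBA1B and TUBA4A. The part of these motifs in the changes was not tested. These matches describe letters only, and no binding was measured in these libraries.

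Of 13 other tubulin genes, 11 had a row and 5 were tested, of which 3 were higher and 1 was lower in Hep3B-KD (36.1% and 23.8% of all genes tested). The median of the 5 was 0.63, beside 0.11 for all genes tested. With no filter on low values, the 11 genes had a median of -0.044. Whether the list stood on the other side of 0 from the 10 isotypes thus depended on the filter. TUBB4A, the class IVa isotype best known from brain, was at 6.90 ± 0.291 FPKM in Hep3B-Con and 12.1 ± 0.549 FPKM in Hep3B-KD (SD, n = 3) and rose by a log2 fold change of 0.80 (adjusted p = 2.03e-05 in limma). TUBA3D, an alpha tubulin best known from testis, rose from 0.875 to 1.59 FPKM on average (log2 fold change 0.81, adjusted p = 0.0164 in limma), a call that was lost in 3 of 16 alternatives. TUBE1, the epsilon tubulin of centrioles, fell from 3.71 to 2.15 FPKM (log2 fold change -0.75, adjusted p = 0.0012 in limma), and the delta tubulin TUBD1 was at 0.076 on the same scale (adjusted p = 0.302). TUBB3, TUBB1, TUBB8, TUBA8, TUBA3E and TUBA4B were below a mean of 0.5 FPKM and were not tested.

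The CCT chaperonin, the ring that folds tubulin and actin, had 7 of its 8 subunits lower and none higher, beside 23.8% of all genes tested that were lower and 36.1% that were higher. The median was -0.27, against 0.11 for all genes. CCT7 fell by 0.40 and CCT4 by 0.36 on the log2 scale, the largest changes of the list, and CCT6A was at 221 FPKM in both groups. With quantile normalization the list had 5 lower and 1 higher, CCT6A being the subunit that was higher, so its split depended on the scaling. Of the 6 prefoldin subunits, which hand nascent chains to CCT, 2 were lower (PFDN2 at -0.36 and PFDN6 at -0.30, as log2 fold changes), VBP1 was higher by 0.49 and 3 did not pass, shares of 33.3% and 16.7% beside 23.8% and 36.1% of all genes tested. PFDN2 and VBP1 were called in all 16 alternatives and PFDN6 in 12. PFDN5, which missed the limit (log2 fold change 0.10, adjusted p = 0.0502 in limma), was called in 8. Of 8 genes listed as tubulin folding cofactors or their relatives and partners, 7 were tested. TBCEL, ARL2 and TBCC were higher, with log2 fold changes of 0.62, 0.59 and 0.36, TBCD and TBCB were lower, at -0.52 and -0.18, shares of 42.9% higher and 28.6% lower beside 36.1% and 23.8% of all genes, and their median was 0.028.

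Of the 4 autoregulation genes, 2 were lower and 2 higher, too few to set beside the 23.8% and 36.1% of all genes tested. CNOT11, the CCR4-NOT subunit of this pathway, was at 38.4 ± 3.11 FPKM in Hep3B-Con and 19.7 ± 1.24 FPKM in Hep3B-KD (SD, n = 3), a log2 fold change of -0.96, and TTC5, which reads the signal on the nascent chain, was lower, at -0.38 on that scale (adjusted p = 0.0134 in limma). SCAPER, the adaptor between TTC5 and CCR4-NOT, was higher by 0.56 (adjusted p = 0.0105 in limma) and the scaffold CNOT1 by 0.14, on the log2 scale. The calls of SCAPER and CNOT1 were each lost in 1 of 16 alternatives.

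Among 9 other genes of the gamma tubulin ring complex and its partners, 4 were higher (44.4%), 1 was lower (11.1%) and 4 did not pass, beside 36.1% higher and 23.8% lower among all genes tested. With median centring 2 were higher and 1 lower, and with quantile normalization 2 were higher and 2 lower. MZT1, a small protein that helps to recruit the ring complex, went from 2.12 ± 0.115 to 5.44 ± 0.196 FPKM (SD, n = 3), a log2 fold change of 1.32 that was past a fold change of 2. NEDD1, which ties the ring complex to the spindle, was higher by 0.27 and TUBGCP4 lower at -0.21 (adjusted p = 0.048 in limma), on the log2 scale. The median of the list was 0.075. MZT1 and TUBGCP6 were called in all 16 alternatives, NEDD1 and TUBGCP5 in 14 each and TUBGCP4 in 7.

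Of 18 genes listed with the enzymes that modify tubulin or its tails, 15 were tested, 9 were higher (60%) and 3 lower (20%). These shares stand beside 36.1% and 23.8% of all genes tested, and the median was 0.36 against 0.11. AGBL3, a carboxypeptidase that shortens glutamate chains, was higher by 1.08 and HDAC6, the alpha tubulin deacetylase, by 0.79 on the log2 scale. TTLL4, a tubulin glutamylase, and TTLL12, a gene of the same TTLL family, were lower, at -0.85 and -0.89 on the log2 scale. These genes also had the highest levels of the list in Hep3B-Con, at 17.6 and 36.5 FPKM. TTL, the ligase that restores the terminal tyrosine, was lower (-0.38), and VASH2, which removes it, was higher (0.74), both as log2 fold changes. Listed beside VASH2, SVBP did not pass (log2 fold change 0.47, adjusted p = 0.0654 in limma) and was called in 2 of 16 alternatives. VASH1 was below a mean of 0.5 FPKM and was not tested. With median centring or quantile normalization 6 of the 15 genes tested were higher and 3 lower. Of 22 microtubule-associated proteins, 17 were tested, of which 6 (35.3%) were higher, close to the 36.1% of all genes tested, and 7 (41.2%) were lower, beside 23.8% of all genes, with a median of 0.064. CLIP1 and MAPRE3, proteins of growing microtubule ends, were higher by 0.96 and 0.81 on the log2 scale. TPX2, a spindle assembly factor, fell from 193 to 110.0 FPKM and MAP2 from 1.63 to 1.16 FPKM, with log2 fold changes of -0.81 and -0.46. STMN1, which sequesters tubulin dimers, rose from 34.6 to 50.1 FPKM.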

How the data were processed

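RNA of 3 Hep3B-Con and 3 Hep3B-KD samples was sequenced with an Illumina TruSeq kit. The authors deposited FPKM values in 1 table of 29908 Ensembl genes. The submitters' processing notes name TopHat2 2.0.12, Bowtie2 2.0.6 and GRCh37, whereas the deposited FPKM values gave whole reads (within 0.01) with exon lengths of GENCODE release 29 (GRCh38), and the reads summed to 15861039 to 17572714 per library. The counting tool and strand setting are not given in the sources used here. Groups and replicate numbers were taken from the labels. Replicates differed beyond sampling noise, with chi-square values per gene of 1.80 to 3.30, and each was counted.

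Values were analysed as log2(FPKM + 0.1) with limma 3.58.1 (lmFit and eBayes with trend) in R 4.3.3, for the 14221 genes whose mean reached 0.5 FPKM. The exact permutation test of 3 against 3 is two-sided. The fit was also run on simulated reads, and no result given here rests on that run. Named genes were the 10 tubulin isotypes, DAGLA, genes of the lists shown (in each those past a fold change of 2 and the largest changes in each direction) and pseudogene copies. Members and lists were chosen with earlier results of these data known. Alternatives were pseudocounts of 1 and 0.01, other filters, TPM rescaling, median centring, quantile normalization, no trend, a replicate block, voom on the recovered reads, summed isotypes and each library left out. Coding sequences and the 3′ UTR matches came from GENCODE release 29 transcripts, promoters from RefSeq. The hairpin sequence came from the study's supplement. Tables were handled in Python 3.11.15 with pandas 2.3.3, scipy 1.17.1 and Biopython 1.88. Intervals and floors cover counting error or the spread between libraries only.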

Additional observations from a re-analysis of the deposited data

How the results depend on the processing

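Apart from TUBG1, each of the 10 isotypes kept the direction of its log2 fold change in all 16 alternatives, and TUBB, TUBB2A, TUBB2B, TUBB4B, TUBB6, TUBA1B and TUBA1C were called in each of them. TUBG1 was 0.029 with quantile normalization. TUBB2B was 0.32 when summed with TUBB2A, since the sum holds the more abundant gene. The number of lower members was 7, between 6 and 8 when a library was left out, 6 without a filter and 9 with median centring, and 1 was higher throughout. Replicate numbers did not pair the samples, with correlations of their deviations from the group means of -0.013, -0.066 and -0.001 for the same number. With the number as a replicate block 6 members were lower, TUBA4A not being called (adjusted p = 0.0584), and 7919 genes passed in place of 8521. Over all genes, 1256 passed with a fold change of at least 2, but 503 with a pseudocount of 1, which shrinks low genes, and 1185 to 1293 when a library was left out. Among shares of the summed tubulin, the difference between Hep3B-KD and Hep3B-Con moved with recovered reads in place of FPKM, which leaves gene length in, to 8.90 percentage points for TUBA1B (from 8.27), 4.08 for TUBB (from 4.82), 0.701 for TUBB2A (from 1.26), -4.52 for TUBB4B (from -6.04) and -1.21 for TUBB6 (from -0.872). The share of TUBA1A differed by 0.0387 percentage points, and by -0.264 to 0.208 when a library was left out, so it had no direction. TUBA1A rested on 44 to 99 reads a library. The cause of its missed call was not tested.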
